A study of Mus musculus with 20 samples.

Results

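The Ebf family (early B cell factor; Ebf1, Ebf2, Ebf3 and Ebf4) was followed through bone marrow stromal cells of mice with floxed or wild-type Ebf1, all carrying a recombinase of limb mesenchyme. The 4 members were taken by gene symbol from 24347 gene symbols, and all 4 passed the filter on low values. RNA was measured in 12 libraries, 3 in each of 4 groups, all on C57BL/6. CAR ko and CAR wt are CXCL12-abundant reticular cells, sorted as CD45-CD31-Lin-PDGFRα+Sca1- from mice with the genotypes Ebf1fl/fl;Prx1+/cre and Ebf1+/+;Prx1+/cre. PaS ko and PaS wt are the Sca1+ cells within the same gates, from the same 2 genotypes. All 4 groups carried Prx1+/cre, in which Prx1 (Prrx1) sequences drive the recombinase in limb mesenchyme, so blood and endothelial cells of these mice lie outside its main domain, and there was no group without the recombinase. The labels do not say whether the replicates came from separate animals, so p-values measure the spread between these libraries, which may be technical.

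EBF proteins are helix-loop-helix transcription factors that bind DNA as dimers at palindromic sites built around CCCNNGGG. EBF1 is required for commitment to the B cell lineage and also acts in adipocyte and stromal precursors. EBF2 is known in mouse from osteoblast precursors, where it raises the osteoprotegerin gene Tnfrsf11b, and from brown fat precursors. EBF3 maintains CAR cells in mouse marrow together with EBF1, and EBF4 is the least studied member.

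Levels of the marker genes lay on the side of their gates. Ly6a, which encodes Sca1, had 8.82 ± 3.01 FPKM in CAR ko and 4.66 ± 0.815 FPKM in CAR wt libraries (SD, n = 3 each). It had 1551 ± 34.6 FPKM in PaS ko and 1963 ± 218 FPKM in PaS wt libraries. FPKM divides fragments by transcript length and by library size, so levels of different genes can be compared. All 10 listed CAR markers were higher in CAR wt than in PaS wt libraries, and all 10 listed PaS markers were lower. By the test given below, 20.5% of all tested genes were higher and 22.7% lower. Cells were sorted on Sca1, and the lists were chosen with earlier results of these data known. These values therefore describe the groups and do not test the gates. Prrx1 itself had 25.7 ± 1.05 FPKM in CAR ko, 24.2 ± 1.36 FPKM in CAR wt, 39.8 ± 0.183 FPKM in PaS ko and 39.3 ± 6.22 FPKM in PaS wt libraries. Library sums ran from 491801 to 526074 FPKM, and 11863 to 12295 genes had at least 1 FPKM per library. Read depth is unknown, so no counting interval is given. PaS wt replicate 1 stood apart, with 24.6% of genes listed at 0, the lowest share of the 12 libraries.

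The genes lie on 4 chromosomes of assembly GRCm38.p6. Ebf1 is at chr11:44618100-45008096, with 0 other annotated genes overlapping it. Ebf2 is at chr14:67233292-67430952, where 4 long non-coding RNA genes overlap it, and Ebf3 at chr7:137193671-137322805 and Ebf4 at chr2:130295126-130370482 each overlap 1. Use of strand in the counting is not stated, so reads of such neighbours cannot be told apart from those of the member.

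The sequences before annotated start sites are given for Ebf1, the floxed gene, and for Ebf3, whose level separated the cell types. They are the 250 bases upstream of a start, from RefSeq on GRCm38.p6, written 5′ to 3′ on the gene's strand. The first Ebf1 start opens the gene, the other Ebf1 start and the Ebf3 start lie inside it, and capitals mark a match to CCCNNGGG, the inner part of the EBF palindrome.
Ebf1, chr11:44617850-44618099, plus strand: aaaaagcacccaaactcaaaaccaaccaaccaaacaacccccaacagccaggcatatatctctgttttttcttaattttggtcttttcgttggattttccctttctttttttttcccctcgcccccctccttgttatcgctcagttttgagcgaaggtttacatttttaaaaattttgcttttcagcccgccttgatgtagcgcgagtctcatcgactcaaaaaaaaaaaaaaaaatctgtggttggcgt
Ebf1, chr11:44619978-44620227, plus strand: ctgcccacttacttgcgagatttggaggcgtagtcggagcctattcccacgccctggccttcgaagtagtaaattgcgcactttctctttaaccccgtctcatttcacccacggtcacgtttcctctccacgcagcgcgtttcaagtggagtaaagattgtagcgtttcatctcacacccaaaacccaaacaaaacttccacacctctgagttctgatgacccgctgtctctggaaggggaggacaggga
Ebf3, chr7:137314446-137314695, minus strand: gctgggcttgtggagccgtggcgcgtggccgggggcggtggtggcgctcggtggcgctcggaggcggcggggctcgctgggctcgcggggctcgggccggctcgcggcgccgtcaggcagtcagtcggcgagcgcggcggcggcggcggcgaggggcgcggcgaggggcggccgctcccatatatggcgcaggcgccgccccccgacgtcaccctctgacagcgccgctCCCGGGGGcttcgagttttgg

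The Ebf1 sequences were 40% and 52% G or C, with 9 and 14 CpG dinucleotides, and the Ebf3 sequence was 80% G or C with 43. Ebf4 had 31 CpG dinucleotides in its 250 bases. Over windows that also hold 50 bases after the start, the full palindrome, CCCNNGGG with T before it and A after it, had 0 matches at the listed starts of Ebf1, Ebf3 and Ebf4. Across the table it was in 297 of 32851 such windows (0.904%). CCCNNGGG with any flanks, which includes the full palindrome, was in 13.7% of the windows, and of these Ebf starts only that of Ebf3 held it. Both motifs read the same on either strand. A match or its absence in a window describes these letters and not binding.

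Ebf1 was the most abundant member in all 12 libraries. It had 56.0, 56.7 and 59.8 FPKM in CAR ko libraries and 48.9, 48.5 and 46.8 FPKM in CAR wt libraries. In PaS ko libraries it had 65.0, 61.9 and 60.7 FPKM, and in PaS wt libraries 55.0, 62.1 and 50.5 FPKM. Every CAR ko value was above every CAR wt value, while PaS wt replicate 2 fell among the PaS ko values. The highest library was 1.39 times the lowest, the narrowest range in the family.

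Ebf2, the member with roles in osteoblast and brown fat precursors, was high in PaS cells. It had 3.78, 3.69 and 4.52 FPKM in CAR ko and 3.69, 4.80 and 4.56 FPKM in CAR wt libraries. It had 25.9, 23.1 and 25.8 FPKM in PaS ko and 30.3, 30.8 and 36.1 FPKM in PaS wt libraries. All 6 PaS libraries were above all 6 CAR libraries, and within PaS cells the 3 ko libraries lay below the 3 wt libraries.

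Ebf3, the member tied to CAR cell maintenance, had the opposite pattern. It had 25.5, 29.9 and 24.7 FPKM in CAR ko and 32.0, 43.0 and 33.0 FPKM in CAR wt libraries. In PaS ko libraries it had 9.69, 9.05 and 6.08 FPKM, and in PaS wt libraries 8.28, 6.55 and 6.25 FPKM. All CAR libraries were above all PaS libraries, the CAR ko libraries lay below the CAR wt libraries, and the PaS genotypes overlapped. CAR wt replicate 2 was the highest of the 12.

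Ebf4 was the lowest member in every library. It had 0.486, 1.14 and 0.486 FPKM in CAR ko and 0.638, 0.822 and 1.29 FPKM in CAR wt libraries. It had 1.07, 1.57 and 1.85 FPKM in PaS ko and 1.21, 0.315 and 0.710 FPKM in PaS wt libraries. It reached 1 FPKM in 6 of 12 libraries, all groups overlapped with their counterparts, and no library listed it at 0.

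**Figure D1:**
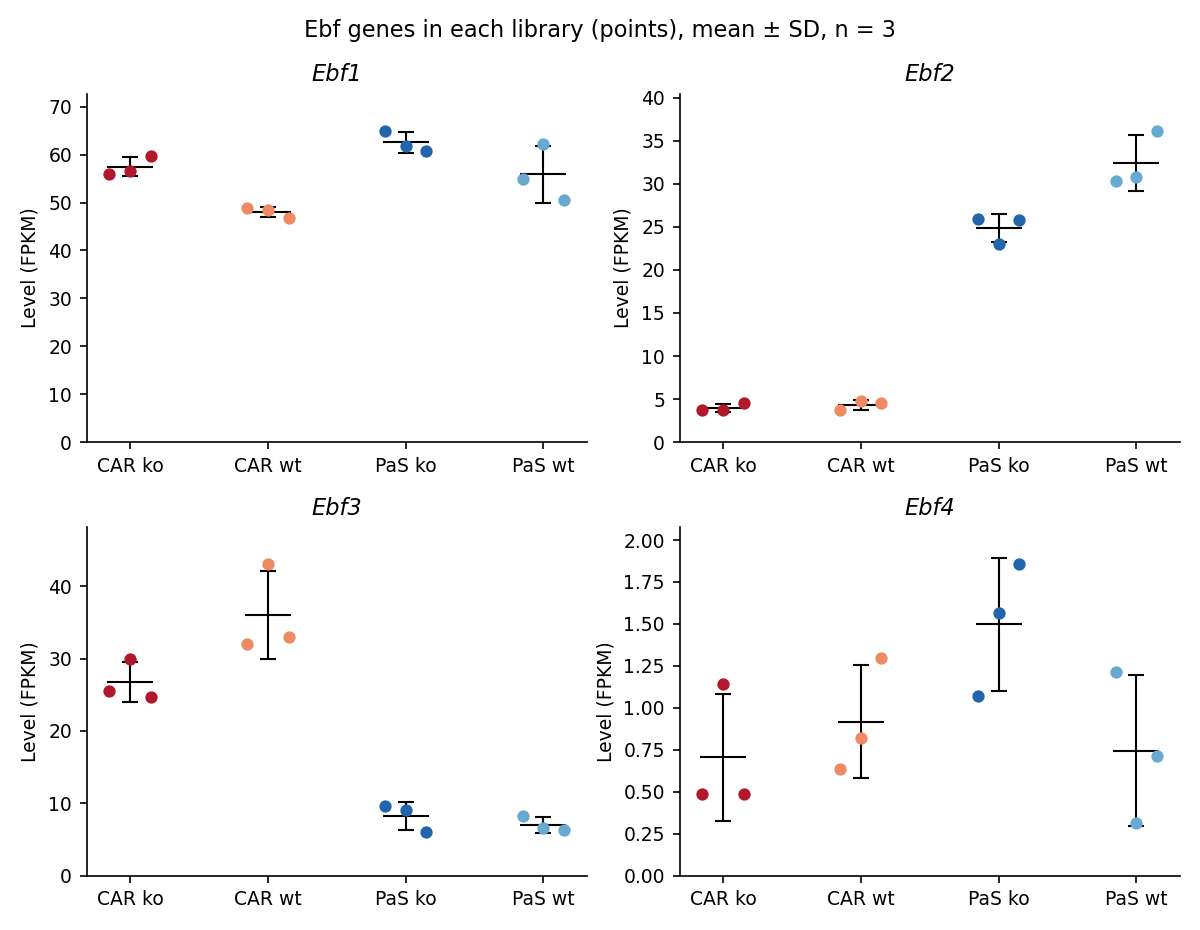
Level in FPKM (linear axis from 0) of each Ebf gene in CAR ko, CAR wt, PaS ko and PaS wt libraries; points are libraries, horizontal lines are means and bars are SD (n = 3). Ebf2 is at 3.69 to 4.80 FPKM in CAR and 23.1 to 36.1 FPKM in PaS libraries, Ebf3 at 24.7 to 43.0 FPKM in CAR and 6.08 to 9.69 FPKM in PaS libraries, and Ebf4 stays under 2 FPKM.

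The order of the members was the same in every library of a cell type. In 6 of 6 CAR libraries it was Ebf1, Ebf3, Ebf2 and Ebf4 from high to low, and in 6 of 6 PaS libraries Ebf1, Ebf2, Ebf3 and Ebf4. Among 32 transcription factors, the 4 Ebf genes and 28 listed factors of stromal cells, Ebf1 ranked 5 to 7 in CAR ko, 6 to 7 in CAR wt, 6 to 8 in PaS ko and 8 in PaS wt libraries. Ebf2 and Ebf3 traded places between the cell types. Ebf2 ranked 26 to 29 in CAR ko, 26 to 28 in CAR wt, 17 to 18 in PaS ko and 12 to 15 in PaS wt libraries. Ebf3 ranked 13 to 17 in CAR ko, 8 to 11 in CAR wt, 23 to 27 in PaS ko and 25 to 26 in PaS wt libraries. Ebf4 ranked 31 throughout.

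Summed over the 4 genes, the family had close totals with different contents. The sum was 88.9 ± 2.85 FPKM in CAR ko, 89.4 ± 6.77 FPKM in CAR wt, 97.2 ± 3.83 FPKM in PaS ko and 96.1 ± 3.28 FPKM in PaS wt libraries (SD, n = 3 each). Ebf1 made up 64.7 ± 2.45% of it in CAR ko, 54.0 ± 3.73% in CAR wt, 64.3 ± 0.414% in PaS ko and 58.1 ± 4.17% in PaS wt libraries. Most of the remainder was Ebf3 in CAR cells and Ebf2 in PaS cells. Ebf3 had 30.0 ± 2.56% in CAR ko and 40.1 ± 3.60% in CAR wt libraries, against 8.48 ± 1.77% in PaS ko and 7.33 ± 1.22% in PaS wt libraries. Ebf2 had 4.50 ± 0.515% in CAR ko and 4.87 ± 0.499% in CAR wt libraries, against 25.6 ± 1.59% in PaS ko and 33.8 ± 4.20% in PaS wt libraries. The ratio of Ebf3 to Ebf2 was 6.77 ± 1.32 in CAR ko, 8.29 ± 0.921 in CAR wt, 0.334 ± 0.0857 in PaS ko and 0.220 ± 0.0504 in PaS wt libraries. These sums and shares are descriptions and were not tested.

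**Figure D2:**
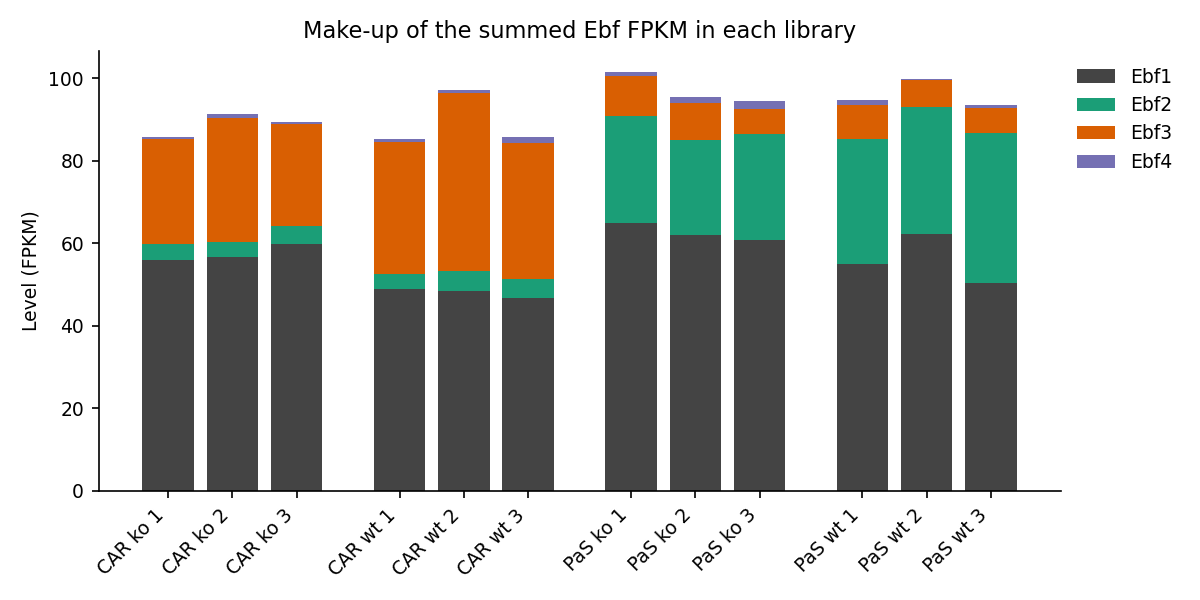
Summed FPKM of the Ebf genes in each of the 12 libraries (stacked bars from 0, 1 colour per gene; n = 1 library per bar). Ebf1 is the largest block throughout, Ebf3 the second in CAR libraries and Ebf2 the second in PaS libraries, on totals of 85.2 to 101.6 FPKM.

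The first comparison asked how the family differs between the stromal populations. Tests were made on log2(FPKM + 1) with limma across 12938 genes, and genes with a two-sided Benjamini-Hochberg adjusted p under 0.05 are termed called. On this scale differences of low genes such as Ebf4 are understated. Between CAR wt and PaS wt libraries 3 of the 4 members were called, where 43.2% of all tested genes were. Ebf2 was lower in CAR wt, with 4.35 ± 0.583 FPKM against 32.4 ± 3.24 FPKM in PaS wt (log2 difference -2.64, SE 0.12, adjusted p = 3.9e-11). The PaS wt mean was 7.45 times the CAR wt mean. Ebf3 was higher in CAR wt, with 36.0 ± 6.07 FPKM against 7.03 ± 1.10 FPKM in PaS wt (log2 difference 2.2, SE 0.16, adjusted p = 1.4e-08), a ratio of means of 5.13. Ebf1 was lower in CAR wt by a small margin, with 48.1 ± 1.10 FPKM against 55.9 ± 5.89 FPKM (log2 difference -0.21, SE 0.08, adjusted p = 0.037). This Ebf1 call was lost without any single CAR wt library, at adjusted p of 0.062 to 0.10, without PaS wt replicate 1, at 0.065, and without PaS wt replicate 2, at 0.18. Ebf4 had a log2 difference of 0.15 (SE 0.23, adjusted p = 0.62).

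The same split stood in cells labelled ko, where 2 members were called against 36.9% of all tested genes. Ebf2 had 4.0 ± 0.457 FPKM in CAR ko and 24.9 ± 1.60 FPKM in PaS ko libraries (log2 difference -2.38, SE 0.12, adjusted p = 1.7e-10). Ebf3 had 26.7 ± 2.79 FPKM in CAR ko and 8.27 ± 1.93 FPKM in PaS ko libraries (log2 difference 1.60, SE 0.16, adjusted p = 6.8e-07). The ratio of means was 6.23 for Ebf2, PaS ko over CAR ko, and 3.23 for Ebf3, CAR ko over PaS ko. Ebf1 had a log2 difference of -0.12 (adjusted p = 0.25) and Ebf4 of -0.56 (adjusted p = 0.069). CAR and PaS libraries did not overlap for Ebf1, Ebf2 and Ebf3 in either genotype, where 51.2% of tested genes did not overlap among wt and 47.9% among ko libraries. Averaged over genotypes 3 members were called, against 51.0% of tested genes, with log2 differences of -0.16 for Ebf1 (adjusted p = 0.018), -2.51 for Ebf2 (adjusted p = 5.3e-13) and 1.90 for Ebf3 (adjusted p = 6.9e-10). Permuted within genotypes, the exact two-sided test gave p = 0.005 for each of these 3, the smallest its 400 arrangements allow, and 0.34 for Ebf4, also unadjusted.

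**Figure D3:**
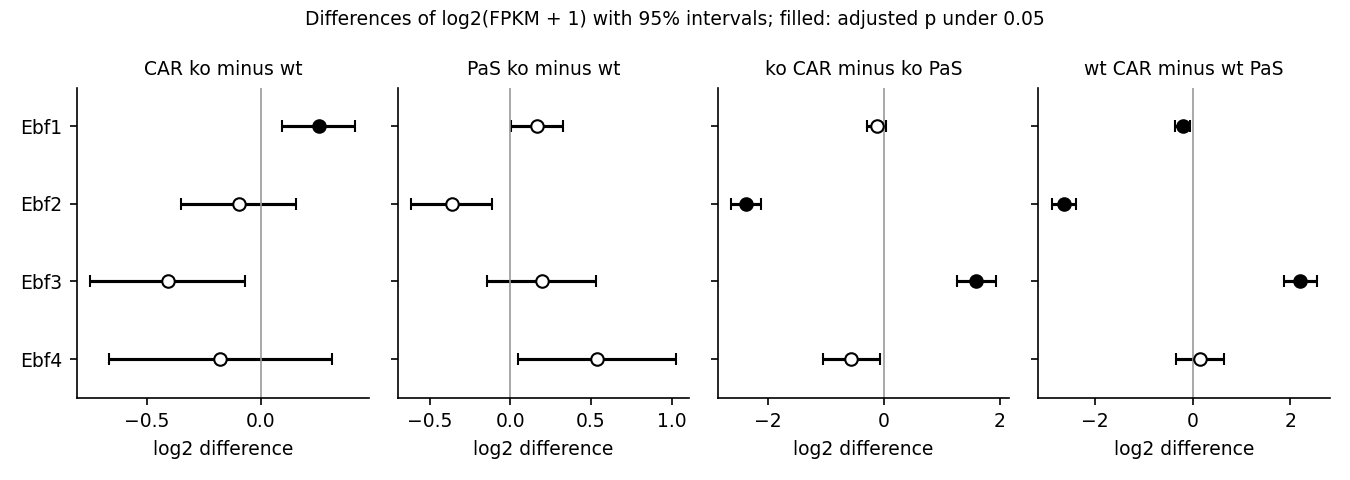
Log2 differences of log2(FPKM + 1) for each Ebf gene in 4 comparisons (panels with their own horizontal axes), with 95% intervals from limma; filled points have an adjusted p under 0.05. The filled points are Ebf1 in CAR ko minus wt (0.25), Ebf2 (-2.38) and Ebf3 (1.60) in ko CAR minus ko PaS, and Ebf1 (-0.21), Ebf2 (-2.64) and Ebf3 (2.2) in wt CAR minus wt PaS.

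The next comparison asked what the family does in CAR cells when Ebf1 is targeted. The targeted gene was not lower in libraries labelled ko. Whole-gene FPKM can include exons outside the deleted part, and the labels do not name the floxed exons, so the deletion cannot be checked from them. Of the members 1 was called, against 12.3% of all tested genes. Ebf1 had 57.5 ± 1.99 FPKM in CAR ko and 48.1 ± 1.10 FPKM in CAR wt libraries, 19.6% higher (log2 difference 0.25, SE 0.08, adjusted p = 0.040). The call was lost without any single CAR library, at adjusted p of 0.065 to 0.13, and without PaS wt replicate 1, at 0.052. The exact two-sided permutation p over these 6 libraries was 0.1, the smallest that 3 against 3 allow.

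Ebf3 had 26.7 ± 2.79 FPKM in CAR ko and 36.0 ± 6.07 FPKM in CAR wt libraries, 25.8% lower, without passing the test (log2 difference -0.41, 95% interval -0.75 to -0.07, adjusted p = 0.11). A fit of CAR libraries alone put it past the threshold, at an adjusted p of 0.043. Ebf2 had a log2 difference of -0.10 (95% interval -0.35 to 0.16, adjusted p = 0.68) and Ebf4 of -0.18 (95% interval -0.67 to 0.31, adjusted p = 0.70). CAR ko and CAR wt libraries did not overlap for Ebf1 and Ebf3, 2 of 4 members, where 29.9% of tested genes did not overlap. Of the 10 CAR markers, 5 were lower and 0 higher in CAR ko libraries, against 5.74% and 6.51% of tested genes. Of the 10 PaS markers, 6 were higher and 2 lower in CAR ko libraries. The part of these marker changes in the Ebf3 values was not tested.

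In PaS cells 0 of 4 members were called by limma, against 7.44% of all tested genes. At an unadjusted p under 0.05 there were 3, namely Ebf1, Ebf2 and Ebf4, where 19.3% of all tested genes were. Ebf2 had 24.9 ± 1.60 FPKM in PaS ko and 32.4 ± 3.24 FPKM in PaS wt libraries, 23.2% lower (log2 difference -0.37, 95% interval -0.62 to -0.11, adjusted p = 0.081). It was the only member whose PaS ko and PaS wt libraries did not overlap, where 23.4% of tested genes did not. Its adjusted p fell to 0.042 in a fit of PaS libraries alone and to 0.031 with a pseudocount of 5 FPKM. Of the 10 PaS markers, 6 were lower and 1 higher in PaS ko libraries, against 4.03% and 3.41% of tested genes. The part of this in the Ebf2 values was not tested. Ebf1 had 62.5 ± 2.18 FPKM in PaS ko and 55.9 ± 5.89 FPKM in PaS wt libraries (log2 difference 0.16, 95% interval 0.00 to 0.33, adjusted p = 0.25). Ebf3 had a log2 difference of 0.19 (95% interval -0.14 to 0.53, adjusted p = 0.57) and Ebf4 of 0.54 (95% interval 0.05 to 1.03, adjusted p = 0.21).

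The effects in CAR and PaS cells were set against each other in the same model. For 0 of 4 members was the difference called, against 6.58% of tested genes. At an unadjusted p under 0.05 there were 2, Ebf3 and Ebf4, both lower. Of all tested genes, 9.82% were lower at that threshold, a share that leaves out those on the higher side. Ebf3 had a difference of effects, CAR minus PaS, of -0.60 (95% interval -1.08 to -0.13, adjusted p = 0.14), and Ebf4 of -0.71 (SE 0.32, adjusted p = 0.23). Without PaS ko replicate 3, the lowest PaS ko library for Ebf3, that of Ebf3 was -0.79 (adjusted p = 0.032). Ebf1 had 0.09 (adjusted p = 0.71) and Ebf2 0.27 (adjusted p = 0.40).

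Averaged over the cell types, Ebf1 was higher in ko than in wt libraries (log2 difference 0.21, SE 0.05, adjusted p = 0.017), the 1 member called higher, where 6.08% of tested genes were. This call held without any single library, at adjusted p up to 0.0495. Ebf2 had -0.23 (SE 0.08, adjusted p = 0.094), Ebf3 -0.11 (adjusted p = 0.63) and Ebf4 0.18 (adjusted p = 0.56). Exact two-sided permutation tests within cell types gave p = 0.015 for Ebf1, 0.03 for Ebf2, 0.54 for Ebf3 and 0.4 for Ebf4, none of them adjusted for testing 4 members.

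B cells express Ebf1, so markers of blood cells are given beside it. The summed level of 10 B cell markers was 37.1 to 45.4 FPKM in CAR ko and 99.5 to 103 FPKM in CAR wt libraries. It was 111 to 138 FPKM in PaS ko and 94.9 to 98.9 FPKM in PaS wt libraries. In CAR ko this sum was lower and Ebf1 higher than in CAR wt. In PaS ko the sum and the mean of Ebf1, which was not called there, were both higher than in PaS wt. The sum of 8 pan-leukocyte markers was 110 to 115 FPKM in CAR ko and 307 to 326 FPKM in CAR wt libraries, and 254 to 267 FPKM in PaS ko and 417 to 468 FPKM in PaS wt libraries. None of the B cell markers was at 0 in all libraries of a group, and Pax5, a defining B cell factor, did not reach 1 FPKM in any library.

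Other cell types moved as well. The sum of 9 neutrophil markers was 4522 to 5122 FPKM in CAR ko and 10026 to 11568 FPKM in CAR wt libraries, and 6773 to 6944 FPKM in PaS ko and 21795 to 24528 FPKM in PaS wt libraries. The sum of 8 endothelial markers was 15.5 to 18.3 FPKM in CAR ko and 9.66 to 10.9995 FPKM in CAR wt libraries, and 65.0 to 68.8 FPKM in PaS ko and 68.6 to 80.5 FPKM in PaS wt libraries. Neutrophil markers were lower in both ko groups, and endothelial markers were higher in PaS than in CAR libraries throughout. Of 8 osteoblast markers, 7 were higher and 1 lower in CAR ko than CAR wt libraries. In PaS ko against PaS wt libraries 7 were higher and 0 lower. The 1 lower in CAR ko was Col1a1, with 1559 ± 2700 FPKM in CAR ko, an SD above the mean, and 5214 ± 266 FPKM in CAR wt libraries. An SD so far above the mean of 3 libraries arises when nearly all of the level lies in a single library. This call therefore describes uneven CAR ko libraries and is not read as lower Col1a1. Of 8 chondrocyte markers, 2 were higher and 4 lower in CAR ko, and 7 were higher in PaS ko libraries. Of 8 measured erythroid markers 6 were lower in CAR ko and 3 higher in PaS ko libraries. Only 3 of 8 adipocyte markers passed the filter, and these 3 were higher in PaS ko libraries. Of them, Retn had 1.86 ± 0.845 FPKM in PaS ko libraries and means of 0.231 to 0.431 FPKM in the other groups. It passed the filter through the PaS ko libraries, so its side in this comparison was favoured in advance. Of all tested genes, 6.51% were higher and 5.74% lower in CAR ko, and 3.41% higher and 4.03% lower in PaS ko libraries. In sorted bulk samples, fewer cells of a type and less RNA per cell cannot be told apart, and the part of these markers in the results for the Ebf genes was not tested beyond these values.

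**Figure D4:**
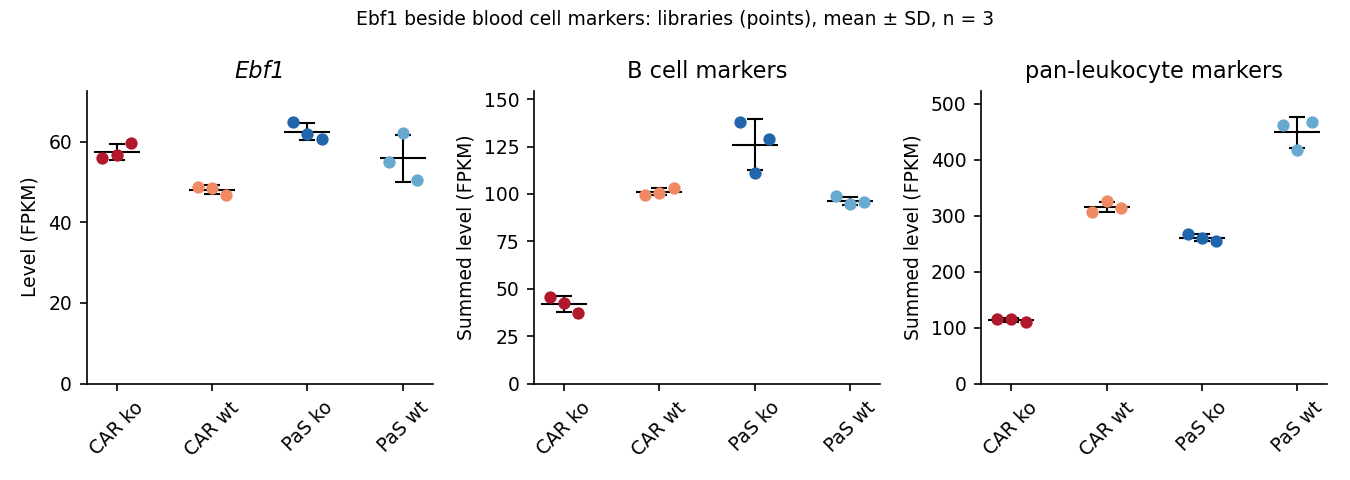
Level of Ebf1 and summed levels of 10 B cell and 8 pan-leukocyte markers, all in FPKM on linear axes from 0, in CAR ko, CAR wt, PaS ko and PaS wt libraries; points are libraries, lines are means and bars SD (n = 3). In CAR ko libraries Ebf1 is at 56.0 to 59.8 FPKM and the B cell sum at 37.1 to 45.4 FPKM, against 46.8 to 48.9 FPKM and 99.5 to 103 FPKM in CAR wt. In PaS ko libraries Ebf1 is at 60.7 to 65.0 FPKM and the B cell sum at 111 to 138 FPKM, against 50.5 to 62.1 FPKM and 94.9 to 98.9 FPKM in PaS wt.

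Factors that act with EBF proteins or oppose them were described next. Of 20 listed partners, antagonists and E proteins, 17 passed the filter; the B cell factor Pax5, the brown fat regulator Prdm16 and the coactivator Ppargc1a did not. In CAR cells 2 were higher and 3 lower in ko libraries, against 6.51% and 5.74% of tested genes, with a median log2 difference of -0.13 against 0.01 over all tested genes. In PaS cells 2 were higher and 1 lower, against 3.41% and 4.03%, with a median of -0.07 against 0.00. The difference of effects was called for 0 of 17 by limma, 3 had an unadjusted p under 0.05, all lower, and the smallest adjusted p was 0.065, for Spi1.

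Zfp521, a zinc finger protein that binds EBF1 and opposes it in mouse, was higher in both ko groups. It had 7.42, 7.65 and 7.22 FPKM in CAR ko and 4.70, 3.78 and 5.13 FPKM in CAR wt libraries. It had 18.5, 18.2 and 16.7 FPKM in PaS ko and 13.9, 11.7 and 14.03 FPKM in PaS wt libraries. The groups overlapped in neither cell type. The log2 difference was 0.61 in CAR cells (SE 0.12, adjusted p = 0.0028) and 0.41 in PaS cells (SE 0.12, adjusted p = 0.0497). The PaS call was lost with a pseudocount of 0.1 FPKM, without a filter and with library weights, at adjusted p of 0.058 to 0.070, and without 10 of the 12 single libraries, at 0.061 to 0.19. Zfp423, its relative and a preadipocyte factor, had -0.13 in CAR (adjusted p = 0.59) and -0.04 in PaS cells (adjusted p = 0.90).

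ID proteins bind E proteins and keep them from DNA. Id2 rose in both ko groups, with 272 ± 9.18 FPKM in CAR ko and 230 ± 11.6 FPKM in CAR wt libraries (log2 difference 0.25, adjusted p = 0.0077). In PaS cells it had 370 ± 15.0 FPKM in ko and 308 ± 0.799 FPKM in wt libraries (log2 difference 0.26, adjusted p = 0.0067). Id4 fell in CAR ko libraries, with 115 ± 2.13 FPKM against 146 ± 5.15 FPKM in CAR wt (log2 difference -0.34, adjusted p = 0.0062). Spi1, the myeloid factor PU.1, fell to 6.38 ± 1.11 FPKM in CAR ko, against 16.6 ± 2.73 FPKM in CAR wt (log2 difference -1.25, adjusted p = 2.1e-05). In PaS cells it had -0.61 (adjusted p = 0.011; 0.0502 without PaS wt replicate 2). Ikzf1, the lymphoid factor Ikaros, had -0.83 in CAR (adjusted p = 0.0022) and -0.27 in PaS cells (adjusted p = 0.39). Spi1 and Ikzf1 are genes of blood cells. The 8 pan-leukocyte markers were all lower in CAR ko libraries, against 5.74% of tested genes. In PaS ko libraries 4 of 8 were lower, against 4.03%. The part of blood cells in the Spi1 and Ikzf1 values was not tested.

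**Figure D5:**
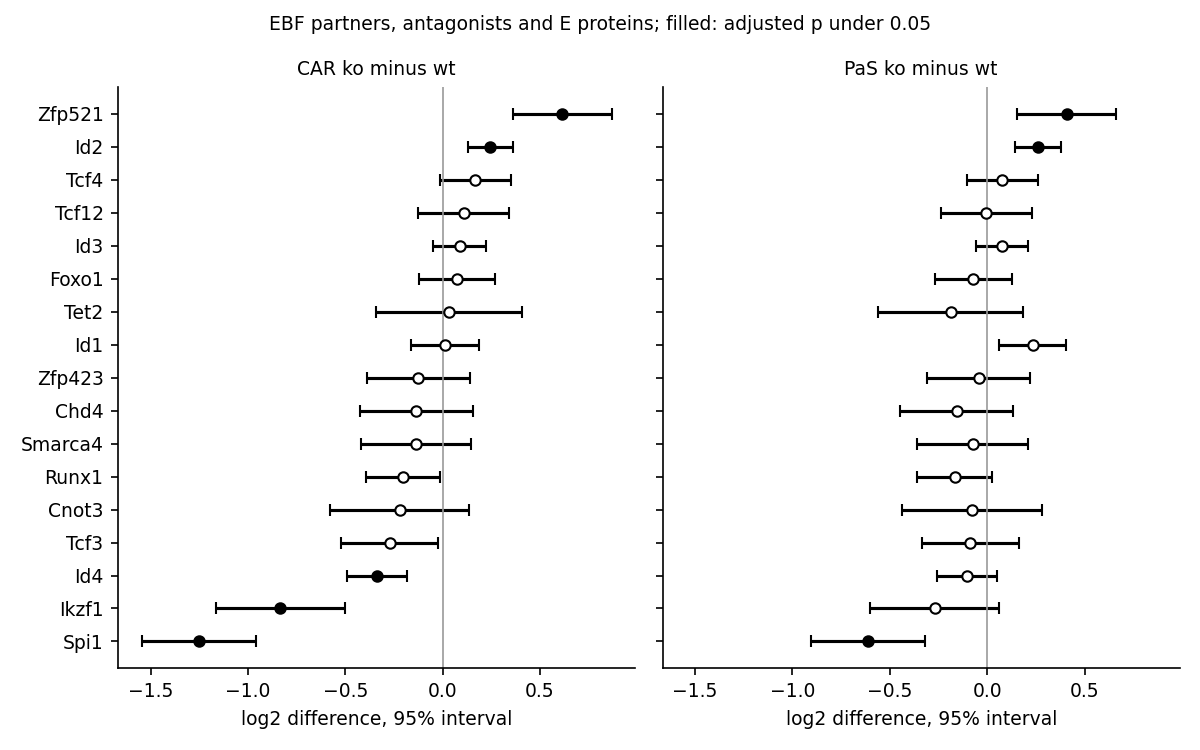
Log2 differences, ko minus wt, of the 17 tested partners, antagonists and E proteins in CAR cells (left) and PaS cells (right), with 95% intervals from limma; filled points have an adjusted p under 0.05. Zfp521 and Id2 are filled and above 0 on both sides, and Spi1 is filled and below 0 on both sides.

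Between CAR wt and PaS wt libraries 3 of the 17 were higher and 5 lower, against 20.5% and 22.7% of tested genes. Zfp521 was lower in CAR wt (log2 difference -1.36, adjusted p = 1.3e-07), the same side as Ebf2. Id4 (1.61, adjusted p = 4.6e-11), Runx1, a blood and mesenchymal factor (1.21, adjusted p = 1.8e-08), and Id3 (0.57, adjusted p = 2.0e-06) were higher, the same side as Ebf3.

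Of 20 adipocyte and stromal genes linked to EBF factors, 6 of them also CAR markers, 19 passed the filter. In CAR cells 2 were higher and 4 lower in ko libraries, against 6.51% and 5.74% of tested genes, with a median of -0.03. In PaS cells 5 were higher and 0 lower, against 3.41% and 4.03% of tested genes, with a median of 0.08. The genes that moved differ in function. Cebpa, an adipogenic factor, had 20.3 ± 1.51 FPKM in CAR ko and 28.6 ± 0.480 FPKM in CAR wt libraries (log2 difference -0.48, adjusted p = 0.0042). Adipoq, the adiponectin gene of CAR cells, had -0.35 in CAR cells (adjusted p = 2.2e-04) and 0.08 in PaS cells (adjusted p = 0.41). Foxc1, a factor of CAR cells, had 101 ± 2.13 FPKM in CAR ko and 129 ± 3.16 FPKM in CAR wt libraries (log2 difference -0.35, adjusted p = 0.0033).

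Tnfrsf11b, the EBF2-linked gene of osteoprotegerin, was higher in both ko groups. It had 23.6, 19.9 and 21.9 FPKM in CAR ko and 14.3, 15.9 and 14.6 FPKM in CAR wt libraries (log2 difference 0.52, SE 0.13, adjusted p = 0.017). It had 26.6, 40.8 and 31.0 FPKM in PaS ko and 14.7, 15.9 and 18.5 FPKM in PaS wt libraries (log2 difference 0.95, SE 0.13, adjusted p = 2.3e-04). The libraries of ko and wt did not overlap in either cell type. The CAR call was lost without a filter, at 0.056, and without CAR ko replicate 1 or 3 or CAR wt replicate 1 or 3, at 0.052 to 0.070. Ebf2 itself had 24.9 ± 1.60 FPKM in PaS ko and 32.4 ± 3.24 FPKM in PaS wt libraries. In CAR ko and CAR wt libraries it had 4.0 ± 0.457 and 4.35 ± 0.583 FPKM. Whether the levels of Ebf2 and Tnfrsf11b are linked in these cells was not tested.

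In PaS cells the adipsin gene Cfd had 32.8 ± 2.31 FPKM in ko and 2.64 ± 0.351 FPKM in wt libraries (log2 difference 3.22, adjusted p = 5.6e-08), against 0.731 ± 0.101 FPKM in CAR ko and 1.11 ± 0.699 FPKM in CAR wt libraries. Fabp4, a fatty acid binding protein, had a log2 difference of 0.45 (adjusted p = 0.0060). The osteoblast factor Sp7 had 9.44 ± 1.70 FPKM in PaS ko and 5.17 ± 0.284 FPKM in PaS wt libraries (log2 difference 0.75, adjusted p = 0.0012). Between CAR wt and PaS wt libraries the median of the 19 was 1.42, against 0.00 over all tested genes. Of the 19, 15 were higher and 3 lower, against 20.5% and 22.7% of tested genes. These include genes by which CAR cells are known, such as Adipoq (1.99, adjusted p = 4.1e-14), the chemokine Cxcl12 (1.63, adjusted p = 2.7e-11) and stem cell factor Kitl (1.93, adjusted p = 2.7e-11).

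The list of EBF1 targets of the B lineage, 20 genes with Ebf1 among them, had 15 above the filter. In CAR ko libraries 10 were lower and 1, Ebf1 itself, was higher, against 5.74% and 6.51% of tested genes, with a median of -0.71. The surrogate light chain genes led the list. Igll1 had 1.73 ± 0.299 FPKM in CAR ko and 11.2 ± 0.570 FPKM in CAR wt libraries (log2 difference -2.16, adjusted p = 1.1e-06), and Vpreb1 had 1.39 ± 0.453 FPKM in CAR ko and 7.11 ± 1.25 FPKM in CAR wt libraries (log2 difference -1.77, adjusted p = 8.6e-06). In PaS ko libraries the median was 0.34, and 2 were higher and 0 lower, against 3.41% and 4.03% of tested genes. These were Cd24a (0.48, adjusted p = 7.0e-04) and the B cell receptor gene Cd79b (0.48, adjusted p = 0.047), whose call was lost under 4 other settings and without 8 of 12 single libraries. The difference of effects was called for 9 of 15, each on the lower side, where 3.26% of tested genes were. Of the 20 genes, 9 are also among the 10 B cell markers. The summed B cell markers moved in the same direction in each comparison, which the shared genes favour, so this adds no separate evidence.

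The listed olfactory neuron genes with EBF sites were mostly below the filter. Of 10, 3 passed it, and 0 of these were called by limma in either ko comparison, or reached an unadjusted p under 0.05, which 24.8% of all tested genes did in CAR and 19.3% in PaS cells. Omp, the olfactory marker protein, reached 0.877 FPKM at most.

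Among 28 listed transcription factors of stromal cells, 27 passed the filter. In CAR ko libraries 7 were higher and 2 lower, against 6.51% and 5.74% of tested genes. The skeletal factors Osr2 (log2 difference 0.72, adjusted p = 8.2e-05) and Osr1 (0.60, adjusted p = 0.0016) were among those higher. Osr2 had 9.70 ± 1.09 FPKM in CAR ko and 5.46 ± 0.0729 FPKM in CAR wt libraries, against 69.4 ± 5.94 FPKM in PaS ko and 81.5 ± 3.54 FPKM in PaS wt libraries. In PaS ko libraries 3 were higher and 0 lower, against 3.41% and 4.03% of tested genes. The 3 were Sp7, Prrx2 (0.49, adjusted p = 0.0020) and Dlx5 (0.44, adjusted p = 0.019), all known in skeletal cells. The Dlx5 call was lost without a filter, at 0.063, and without PaS wt replicate 3 or PaS ko replicate 2, at 0.090 and 0.094. Between CAR wt and PaS wt libraries 10 were higher and 13 lower, against 20.5% and 22.7% of tested genes. The differences of Osr2 (-3.67), Osr1 (-3.40) and Prrx2 (-2.69) were larger in size than that of Ebf2 (-2.64). Of the 10 that were higher in CAR wt, Sp7 (2.6) had a larger difference than Ebf3 (2.2), and the other 9, from Zeb2 (0.48) to Runx2 (1.77), had smaller ones.

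The genes whose log2(FPKM + 1) followed each member most closely were ranked by Pearson r over the 12 libraries. The libraries form CAR and PaS clusters, so r is given as a measure of likeness only. The nearest to Ebf2 were Entpd2, an ectonucleotidase, Glud1, glutamate dehydrogenase, Pi16, Bdh2 and Pcolce2, at r of 0.996 to 0.997. Pi16 had 1.42 FPKM in CAR ko, 2.55 in CAR wt, 156 in PaS ko and 280 in PaS wt libraries, on average, and Entpd2 had 14.1, 14.3, 101 and 150 FPKM in the same order of groups. Like Ebf2, both were lower in PaS ko than in PaS wt libraries on average, which their choice by likeness over these same libraries favours.

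The nearest to Ebf3 were Ddit4, a stress-induced inhibitor of mTOR signalling, at r of 0.991, then H2-Q4, Marcksl1, Epas1 and Spry1 at 0.986. Epas1, which encodes the hypoxia factor HIF-2α, had means of 70.1 FPKM in CAR ko, 92.4 in CAR wt, 25.6 in PaS ko and 25.4 in PaS wt libraries. H2-Q4 can share reads with other H2 genes and is uncertain for that reason. The nearest to Ebf1 were Scube1, Shb, Tram1, Gpr155 and Bpnt1, at 0.904 to 0.931. Each had a higher mean in CAR ko than in CAR wt libraries, which their choice by likeness to Ebf1 also favours. The nearest to Ebf4, which lay near 1 FPKM, were Taf3, Gng11, Taf8, Etfdh and Nprl3, at 0.797 to 0.838. Ranked by Spearman correlation, the nearest 5 shared 3 genes for Ebf1, 1 for Ebf2, 3 for Ebf3 and 2 for Ebf4.

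The EBF palindrome was looked for near the starts of the genes that changed. Of 9775 tested genes with a listed start, 129 (1.32%) held the full palindrome in the window. Among those called in CAR cells, it was at 9 of 624 genes higher in ko (1.44%) and 3 of 542 genes lower in ko (0.554%). In PaS cells it was at 6 of 300 genes higher in ko (2.00%) and 5 of 378 lower in ko (1.32%). These shares describe the letters near annotated starts and were not tested.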

How the data were processed

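RNA was measured in 12 libraries of sorted marrow stromal cells. Per the labels' protocols, RNA was isolated with a column kit, enriched with oligo dT beads and made into SMART-Seq v4 libraries. Per the submitters' processing notes, bcl2fastq 2.17.1.14, TopHat2 2.0.14, Cufflinks 2.2.1, Cuffnorm 2.2.1 and Cuffdiff were used with mm10; the annotation and filters are not given in the sources used here. The deposited values are FPKM for 24347 gene symbols per library, and no counts or depths are given. The 8 ATAC-seq samples were not analysed here.

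The 12938 genes that reached 1 FPKM in 3 or more libraries were fitted as log2(FPKM + 1) with limma 3.58.1 in R 4.3.3 as 4 group means with a trended variance (8 residual and 6.95 prior degrees of freedom). Errors beside FPKM are SD, and errors beside log2 differences are model standard errors. The script was checked on simulated data. Replicate numbers were checked, showed weak likeness at most between samples of the same number, and were not used as pairs in the main fit. No 2 libraries shared more than 1 identical nonzero value.

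The members and gene lists were chosen with earlier results of these data known. Named genes were the Ebf genes, Prrx1, Cxcl12, Pdgfra, Ly6a, Ptprc and Pecam1, the 5 genes most correlated with each member and, per list and comparison, the 4 members of smallest p; others named are from counts of 5 or fewer or were chosen after their values were seen. Alternatives were the pseudocount, the filter, scaling, library weights, fitting only the groups compared, a replicate block and leaving out each library. Promoter windows and loci are from RefSeq on GRCm38.p6; figures were drawn with matplotlib 3.10.9.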

Additional observations from a re-analysis of the deposited data

Results flagged for a closer look

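For no Ebf gene did the test of the difference between the genotype effects in CAR and PaS cells pass (limma, adjusted p under 0.05; 2 of 4 had an unadjusted p under 0.05), and groups of 3 libraries are too small to single out a library. The tested difference of effects, ko minus wt in CAR cells minus ko minus wt in PaS cells, passed for 13 of the other genes that the rule for named genes selects. Among adipocyte and stromal genes, Cfd had -3.45 (adjusted p = 2.2e-06), with 3.22 in PaS cells and -0.23 in CAR cells, and Adipoq had -0.44 (adjusted p = 0.0015). Among B lineage genes, Igll1 had -2.59 (adjusted p = 1.6e-05), Vpreb1 -2.17 (adjusted p = 8.3e-05), Cd79b -1.67 (adjusted p = 8.4e-05), Vpreb3 -1.65 (adjusted p = 9.2e-05), Cd79a -1.28 (adjusted p = 0.0011), Blnk -0.84 (adjusted p = 0.014) and Cd24a -0.84 (adjusted p = 2.2e-04), each lower in CAR ko than in CAR wt libraries. The transcription factor gene Osr2 had 0.95 (adjusted p = 3.4e-04). Entpd2, picked for its likeness to Ebf2 over the same libraries, had 0.55 (adjusted p = 0.0056), with -0.03 in CAR cells and -0.57 in PaS cells. Of the genes used for the gates, Ly6a had 1.10 (adjusted p = 0.0065) and Pdgfra 0.52 (adjusted p = 0.0035). Pdgfra had 64.9 ± 3.90 FPKM in CAR ko and 57.9 ± 2.77 FPKM in CAR wt libraries, against 111 ± 4.57 FPKM in PaS ko and 142 ± 6.64 FPKM in PaS wt libraries (SD, n = 3 each).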

How the results depend on the processing

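The differences of Ebf2 and Ebf3 between CAR and PaS cells kept their direction and their call under every alternative run and without any single library. Ebf1 in CAR ko minus wt was 0.25 without a filter (adjusted p = 0.052) and 0.24 under quantile normalization (0.065), both no longer past the threshold, and 0.23 to 0.27 without single libraries (0.018 to 0.13). Ebf1 in wt CAR minus wt PaS was -0.14 under quantile normalization (0.15), -0.17 with library weights (0.059), -0.21 with only the groups compared (0.075) and -0.28 to -0.13 without single libraries (0.010 to 0.18). Averaged over genotypes, Ebf1 in CAR minus PaS was -0.11 under quantile normalization (0.12). Calls gained were Ebf2 in PaS ko minus wt with a pseudocount of 5 (-0.32, 0.031) or only the groups compared (-0.37, 0.042), Ebf3 in CAR ko minus wt with only the groups compared (-0.41, 0.043), and Ebf4 in ko CAR minus ko PaS with library weights (-0.60, 0.045). Without single libraries, Ebf4 in ko CAR minus ko PaS was -0.74 to -0.46 (0.032 to 0.20), Ebf2 averaged over cell types -0.28 to -0.19 (0.048 to 0.21) and the Ebf3 difference of effects -0.79 to -0.47 (0.032 to 0.27). Ebf4 in wt CAR minus wt PaS was -0.034 to 0.34, changing sign without PaS wt replicate 2 (-0.034, 0.93). All p-values in parentheses are adjusted p from limma, and the causes were not tested.

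Samples with the same replicate number deviated together weakly at most: r was above 0.1 in 3 of 18 such pairs (-0.04 to 0.18). Pairs with different numbers had r of -0.13 to 0.093, and 7 of 12 libraries correlated best with their own number. Whether the numbers mark a pairing was not tested. With the number as a replicate block, Ebf1 in CAR ko minus wt had an adjusted p of 0.048, no Ebf call changed, Zfp521 in PaS ko minus wt had 0.059, and 1585, 961 and 839 genes were called in CAR cells, in PaS cells and for the difference, against 1585, 962 and 851. Ebf4 did not pass a filter of 5 FPKM. Read depth is unknown, which limits Ebf4 most.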
